A study of Homo sapiens with 2 samples.

Results

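HMOX1, FTH1 and SQSTM1 are stress genes whose products break down haem, store iron and mark cargo for autophagy. They were taken by Ensembl gene ID together with 8 companion genes of iron handling and of the NRF2 pathway, namely FTL, TFRC, NQO1, GCLM, TXNRD1, BACH1, KEAP1 and NFE2L2. Of these 11 genes, 7 were analysed, out of 16145 gene IDs listed in at least 1 library. TFRC, NQO1, BACH1 and KEAP1 were not analysed here. HMOX1, FTH1 and SQSTM1 had been chosen because their values differed between the libraries, so those differences are a description and carry no test.

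RNA-seq was available for 2 libraries of human cells labelled HAL-01, a pre-B acute lymphoblastic leukaemia line. The AG library came from cells given 0.8 mM 1,5-AG (1,5-anhydroglucitol, a glucose analogue) over 24 h. The Control library came from the same line, and the sources used here do not say what that culture received. Each condition had 1 library, so there was no spread between cultures to set against any difference, and no p-value is given. Values are FPKM (fragments scaled to gene length and to the library total), and bracketed ranges are exact 95% counting intervals of the FPKM ratio.

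The library totals implied by the values were 16240451 fragments for Control and 14857372 for AG. The labelled cell type was weakly represented among marker genes. Of 14 genes of B cell precursors, 9 were listed in at least 1 library, with summed levels of 2.80 FPKM in Control against 3.08 in AG. Of 12 monocyte and granulocyte genes, 6 were listed, with sums of 939 and 481 FPKM. CTSG, at 743 and 194, accounted for the lower sum in AG, and the other 5 summed to 196 and 287 FPKM. ITGAM, at 1.55 and 8.30, and S100A9, at 66.3 and 131, exceeded 1.5-fold upwards in AG. MPO, at 4.75 and 1.70, was like CTSG at least 1.5-fold lower. Of 7 T and NK cell genes, NKG7 alone was listed, at 17.2 and 10.3 FPKM, at least 1.5-fold lower in AG. These markers moved between the libraries together with HMOX1, FTH1 and SQSTM1, and their part in the results below was not tested. In a bulk sample, fewer cells of a type and less RNA per cell cannot be told apart.

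Haem oxygenase 1, the product of HMOX1, opens the haem ring and releases iron, carbon monoxide and biliverdin. Ferritin, a shell of heavy chains (FTH1) and light chains (FTL), stores iron of this kind in a safe form. NRF2, encoded by NFE2L2, activates HMOX1, both ferritin genes, SQSTM1 and the glutathione and thioredoxin genes through antioxidant response elements. KEAP1 sends NRF2 to degradation, and BACH1 represses HMOX1 and ferritin until haem binds it. SQSTM1 (p62) carries ubiquitinated cargo to autophagosomes, holds KEAP1 and is itself an NRF2 target. In monocytes and macrophages, HMOX1 and ferritin are known for their part in the recycling of iron from haem.

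Antioxidant response elements were looked for in RefSeq promoter windows (GRCh38.p14, 250 bases before to 50 after each start), because they are the sequence through which these genes are thought to share control. Windows were found for 9 of the 11 genes, 5 of them analysed here, and HMOX1 and FTH1 had none. The motif searched was TGACNNNGC, or GCNNNGTCA on the other strand. It occurred in 13.3% of all 35116 windows. In the 9 windows of SQSTM1, FTL, GCLM, TXNRD1 and NFE2L2, it occurred in 3, which belonged to GCLM and TXNRD1. The letters were not in the 3 windows of SQSTM1, the window of FTL or the 2 of NFE2L2. Bases outside the windows were not searched, so an element there would not be seen. The matches are printed here with 30 bases on each side and the motif in capitals, first for GCLM (chr1:93909426-93909494, minus strand), then for 3 places in TXNRD1 (chr12:104215650-104215718, chr12:104215741-104215809 and chr12:104286900-104286968, plus strand).
GCLM: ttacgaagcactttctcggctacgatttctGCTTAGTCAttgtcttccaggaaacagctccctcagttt
TXNRD1, first start, upstream match: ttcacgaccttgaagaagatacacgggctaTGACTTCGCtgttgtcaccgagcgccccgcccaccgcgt
TXNRD1, first start, match at the start: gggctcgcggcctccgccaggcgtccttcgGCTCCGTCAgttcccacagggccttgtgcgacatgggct
TXNRD1, second start: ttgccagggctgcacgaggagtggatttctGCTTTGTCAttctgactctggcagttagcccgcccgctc
A match is a description of letters, not a bound site. GCLM and TXNRD1, whose windows held the motif, differed little between the libraries, as the values below show.

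HMOX1 (ENSG00000100292, chromosome 22 at 35380361 to 35394214, plus strand, GRCh38) had 0.481 FPKM in Control against 5.78 in AG. It was therefore a low transcript in Control against a modest one in AG, and it passed the filter of a mean of 1 FPKM through the AG library. The AG value was 12.02 times that of Control (7.41 to 20.7). The count was 18 fragments in Control against 198 in AG at an implied gene length of 2306 bases. Numbers of 9 and 99 at 1153 bases also gave the deposited values, and the interval would then be 6.08 to 27.1. On the log2(FPKM + 1) scale the difference was 2.19, in place 4 from the top among 5528 expressed genes, meaning those that both libraries list and whose values average 1 FPKM or more. With 5 FPKM added in place of 1, it was 0.98. None of the 2405 exon bases of HMOX1 in GENCODE 29 overlapped an exon of another gene.

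FTH1 (ENSG00000167996, chromosome 11 at 61959718 to 61967660, minus strand) had 10.4 FPKM in Control against 23.0 in AG. The AG value was 2.21 times that of Control (1.94 to 2.52), from 339 and 685 fragments. Its log2 difference of 1.07 was in place 50 from the top of the same 5528 genes.

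FTL (ENSG00000087086, chromosome 19 at 48965301 to 48966878, plus strand), the light chain of the same shell, had 3215 FPKM in Control against 3712 in AG. It was the third most abundant gene of each library. Its ratio was 1.15 (1.14 to 1.17), from 45484 and 48034 fragments, so the narrow interval lay above 1 while the difference stayed within 1.5-fold. Translation of ferritin mRNA is held back by iron regulatory proteins at a hairpin near its start, the iron-responsive element, so mRNA levels do not give protein levels. The loop of that element lies in the 5′ UTR of FTL, in the window of RefSeq (GRCh38.p14, chr19:48965336-48965358), and is shown with its loop bases in capitals.
FTL, iron-responsive element: tcttgcttcaaCAGTGTttggac

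The level listed for FTH1 was far below that of FTL. Per length, FTL was 309 times FTH1 in Control against 161 times in AG. In GENCODE 29, 1267 of the 2030 exon bases of FTH1, or 62.4%, lie over exons of BEST1 on the opposite strand, and the sources used here do not name the strand setting of the counting. Protein-coding genes listed in both libraries with 50% or more of their exon bases shared in this way or with a gene on the same strand had low listed values. Their median was 0.344 FPKM over 184 genes, against 4.45 FPKM over 3280 genes that shared none. Means below 1 FPKM were found for 72.3% of the 184 genes and 31.5% of the 3280. FTH1, at 10.4 FPKM in Control against 23.0 in AG, lay well above the median of the 184 genes to which it belongs. The 2954 genes that shared up to 50% had a median of 3.82 FPKM, with 27.4% below 1 FPKM, and SQSTM1 and NFE2L2 belong to this class. PCBP1, an iron chaperone of ferritin, shared 52.2% and had 0.642 and 0.585 FPKM. The autophagy gene GABARAP shared 55.7% and had 0.0631 and 0.0690 FPKM. Both were named after their low values were seen, so they do not stand for the genes with such overlap. How far the overlap with BEST1 set the level of FTH1 was not tested. BEST1 itself, a chloride channel gene, was lower in AG, at 0.581 and 0.457 FPKM.

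FTH1 also has many near-identical copies. Of the 50-base stretches of its transcripts, 19.9% also occurred in transcripts of 16 genes at other places, 14 of them FTH1 pseudogenes. The shares were 18.3% for FTL, 0.46% for HMOX1 and 0.62% for SQSTM1. GENCODE 29 names 25 numbered FTH1 pseudogenes, of which 10 were listed in at least 1 library. Their levels were low, with a highest value of 1.34 FPKM in both libraries, for FTH1P7. Over the 7 listed in both, the sums were 4.44 FPKM in Control against 3.88 in AG. Of these 7, FTH1P16 went from 0.112 to 0.488 FPKM, FTH1P7 and FTH1P4 differed little, and the other 4 were lower in AG. No counting interval is given for these low levels, so their directions are a description only. How many fragments of FTH1 and its copies were not counted, and the part of the copies in the values of FTH1, was not tested.

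**Figure D1:**
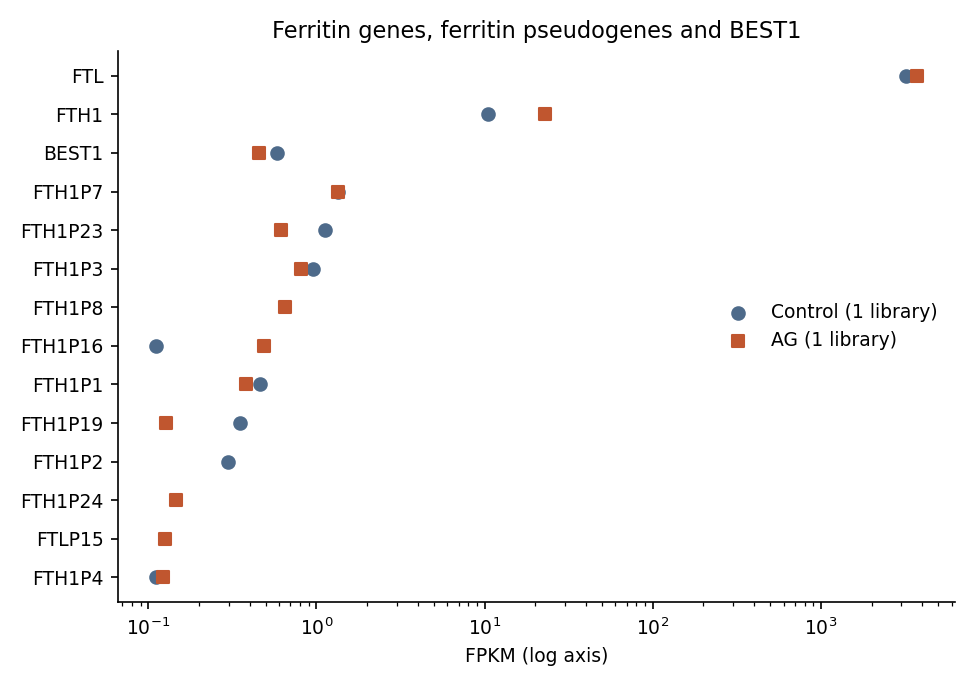
FPKM on a log axis of FTL, FTH1, BEST1 and each listed ferritin pseudogene, with circles for the Control library and squares for the AG library (1 library each). FTL lies at 3215 and 3712 FPKM, FTH1 at 10.4 and 23.0, and all pseudogenes at 1.34 or below, where the 2 symbols of FTH1P7 lie on top of each other.

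SQSTM1 (ENSG00000161011, chromosome 5 at 179806398 to 179838078, plus strand) had 2.32 FPKM in Control against 0.974 in AG. It went the opposite way to HMOX1 and FTH1. The AG value was 0.420 times that of Control (0.333 to 0.525), from 284 and 109 fragments. Its log2(FPKM + 1) difference of -0.75 was in place 113 from the bottom of the 5528 genes, and with 5 FPKM added it was -0.29, inside the 1.5-fold limit. Of its 7654 exon bases, 22.0% lie over exons of genes on the opposite strand, 1582 bases with MRNIP and 105 with MGAT4B. MRNIP, a DNA repair factor, had 0.691 and 0.572 FPKM, and MGAT4B, a glycosyltransferase, had 0.829 and 1.69. The part of this overlap in the values of SQSTM1 was not tested.

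Of the 7 genes analysed, 2 (HMOX1 and FTH1) were higher in AG by 1.5-fold or more and 1 (SQSTM1) was lower by 1.5-fold or more on the log2(FPKM + 1) scale. Among all 5528 genes, 3.6% were higher and 3.33% lower by that rule. Since HMOX1, FTH1 and SQSTM1 were chosen by these values, nothing is read from the comparison of shares.

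**Figure D2:**
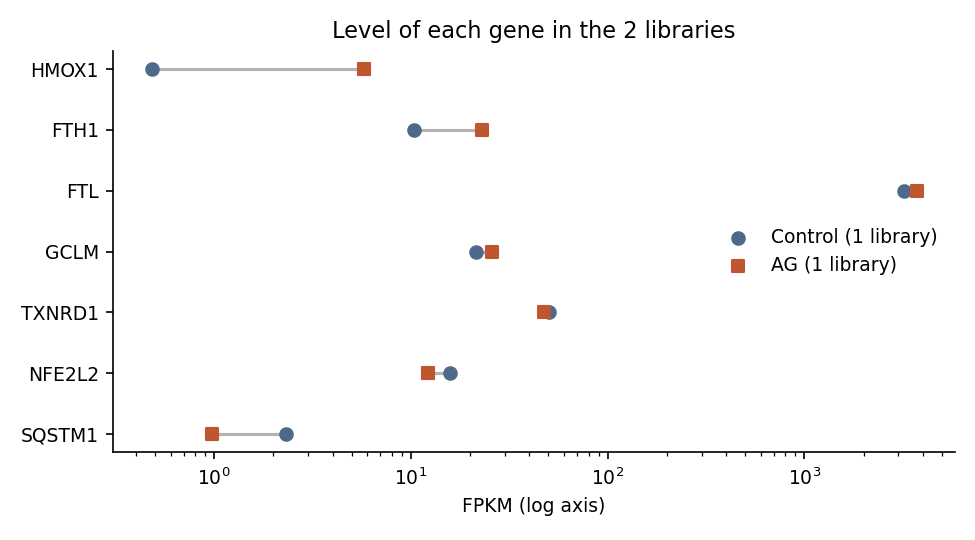
FPKM on a log axis of the 7 genes analysed, with a circle for Control, a square for AG (1 library each) and a line joining them. HMOX1 (0.481 and 5.78) and FTH1 (10.4 and 23.0) are higher in AG, SQSTM1 (2.32 and 0.974) is lower, and FTL, GCLM, TXNRD1 and NFE2L2 have their symbols close together.

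GCLM, TXNRD1 and NFE2L2 were each within 1.5-fold between the libraries, with NFE2L2 the farthest from a ratio of 1. GCLM (ENSG00000023909, chromosome 1), the modifier subunit of the enzyme that starts glutathione synthesis, had 21.5 FPKM in Control against 25.8 in AG, with a ratio of 1.20 (1.13 to 1.28). TXNRD1 (ENSG00000198431, chromosome 12), which reduces thioredoxin, had 50.2 and 47.6, a ratio of 0.947 (0.911 to 0.985). With the smaller fragment numbers that also gave its values (2737 and 2371), the interval of TXNRD1 was 0.896 to 1.00. NFE2L2 (ENSG00000116044, chromosome 2), which encodes NRF2, had 15.8 and 12.2, a ratio of 0.773 (0.713 to 0.838). NRF2 is controlled mainly by protein degradation, so its mRNA does not give its activity. NFE2L2 shares 20.9% of its exon bases with other genes, 1054 of them with a gene on the same strand.

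A list of 40 NRF2 targets outside haem and iron had 9 expressed members, meaning those that passed the filter on low values. None of the 9 was 1.5-fold higher or lower, where 3.6% were higher and 3.33% lower among all 5528 genes. With 9 genes, nothing is read from this count. Their median log2 difference was 0.00, against -0.03 for all 5528 genes. ME1, which makes NADPH from malate, was the highest at 10.1 and 13.1 FPKM, a ratio of 1.30 (1.16 to 1.46). ESD, an esterase, was the lowest at 30.8 and 28.6, a ratio of 0.927 (0.864 to 0.993). The abundant targets were nearly level, with thioredoxin (TXN) at 182 and 175 FPKM and the glutathione transferase GSTP1 at 147 and 147. ABCC4, an efflux pump, had 5.97 and 6.75. A further 6 targets were listed in both libraries but lay below the filter, which HMOX1 itself passed through AG alone, and 5 of these 6 were above 0. Among them, ABCC3, another efflux pump, had 0.0320 and 0.434 FPKM, from 5 and 62 fragments, a ratio of 13.6 (5.51 to 43.2). SLC6A9, a glycine transporter, had 0.106 and 0.269, a ratio of 2.55 (1.12 to 6.33). Over all 15 targets listed in both, the median was 0.13, against -0.01 for all 10548 genes listed in both. Of the 40 genes, 23 were not analysed here, so the list does not speak for the whole pathway.

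The regulators of NRF2 and BACH1 were within 1.5-fold in all 5 cases that could be compared, out of 19 in their list. Among all 5528 genes, 3.6% were higher and 3.33% lower, so nothing is read from this count. The 5 regulators had a median log2 difference of 0.10. Except for NFE2L2 they were slightly above 0. NFE2L1, a relative of NRF2, had 24.3 FPKM in Control against 25.5 in AG. FBXW11 and BTRC, which are ubiquitin ligase subunits that recognise phosphorylated NRF2, had 16.4 and 17.6, and 2.30 and 2.71. The kinase GSK3B had 5.92 and 6.75.

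The presence of the motif was also set against the values of expressed genes that had a promoter window. Expressed genes without a window, HMOX1 and FTH1 among them, were left out. Among all 5528 genes, with these included, 3.6% were at least 1.5-fold higher and 3.33% lower, more than in either set below. Of 734 expressed genes with the motif in a promoter window, 22 (3.0%) were higher in AG by at least 1.5-fold and 13 (1.77%) lower. Of 2949 expressed genes with windows that lacked it, 2.41% were higher and 1.12% lower. The medians were -0.02 and -0.03, and no test of this difference was made.

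The 5 haem and iron lists joined had 74 genes, of which 23 were expressed, and 3 of these were at least 1.5-fold higher. They were HMOX1, FTH1 and POR. Without HMOX1 and FTH1, 1 of 21 was higher, 0 were lower, and the median was 0.04, with 12 above 0 and 9 below. A count of 1 in 21 is near the 3.6% of all 5528 genes, so nothing particular to the haem and iron genes is read from it. Of the 74 genes, 40 were not analysed here.

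In haem breakdown and transport, 4 genes were compared, and HMOX1, chosen by its value, and POR passed 1.5-fold with the higher value in AG. The other 2 were within 1.5-fold. Among all 5528 genes, 3.6% were at least 1.5-fold higher, and nothing is read from a count in 4 genes. POR, the reductase that passes electrons to haem oxygenase and to cytochromes P450, had 8.63 FPKM in Control against 13.8 in AG, with a ratio of 1.60 (1.46 to 1.74). SLC48A1, which moves haem out of endosomes and lysosomes, had 5.79 and 8.52, a ratio of 1.47 (1.30 to 1.66). BLVRB, a biliverdin reductase, had 8.44 and 9.93, a ratio of 1.18 whose interval (0.976 to 1.42) included 1. Since HMOX1 was chosen by its value, the distance of its ratio of 12.02 from the 1.60 of POR is a description only.

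**Figure D3:**
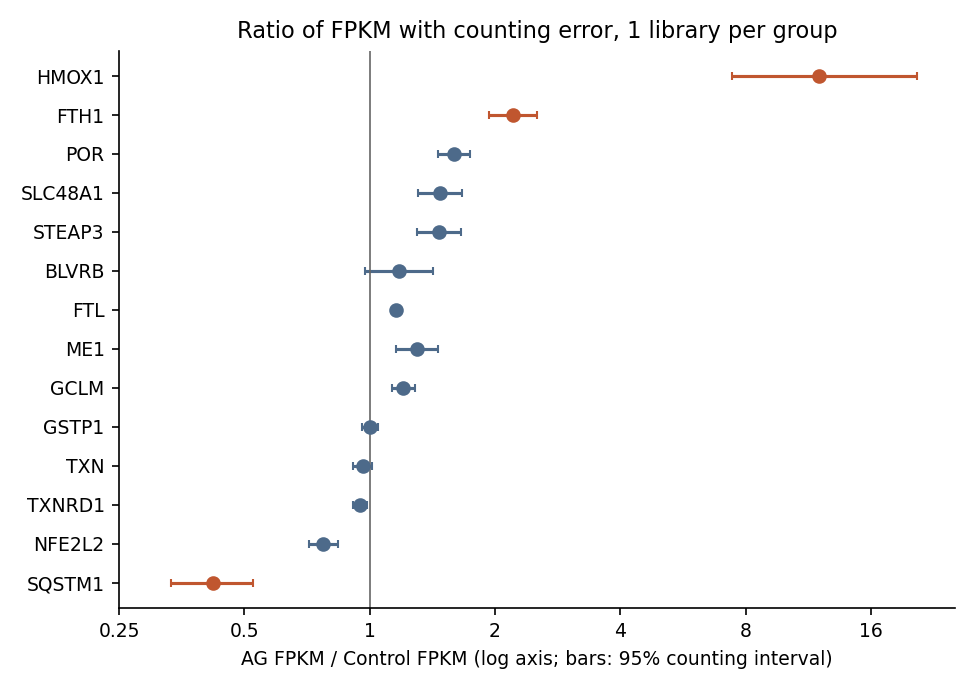
Ratio of AG to Control FPKM on a log axis for HMOX1, FTH1 and SQSTM1 (orange) and for other haem, iron and NRF2 genes (blue), with bars for the 95% counting interval, from 1 library per group. HMOX1, at 12.02, and SQSTM1, at 0.420, were chosen by their values, as was FTH1. POR, SLC48A1 and STEAP3 lie near 1.5 and GSTP1, TXN and TXNRD1 near 1.

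In haem synthesis, ALAD, the second enzyme of the pathway, had 19.4 FPKM in Control against 22.8 in AG, within 1.5-fold. In iron storage, uptake and export, FTH1, chosen by its value, was the only 1 of 6 genes past 1.5-fold. The median was 0.05, and 3.6% of all 5528 genes were at least 1.5-fold higher, so nothing is read from this count. STEAP3, which reduces iron released from transferrin, had 6.38 and 9.35, a ratio of 1.47 (1.30 to 1.65). SLC25A37 and SLC25A28, the carriers of iron into mitochondria, had 14.6 and 12.9, and 19.0 and 17.6. PCBP2, an iron chaperone, had 15.7 and 14.1. IREB2, the iron regulatory protein that binds ferritin mRNA, had 17.9 and 20.1.

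All 10 genes of iron-sulphur cluster assembly were within 1.5-fold, against 3.6% higher and 3.33% lower among all 5528 genes. Nothing is read from this count. Of the 10, 5 lay above 0 and 5 below, with a median of -0.02. NUBP2, of the cytosolic machinery, was the lowest at 13.8 FPKM in Control against 10.4 in AG, with a ratio of 0.757 (0.689 to 0.831). FDXR, which feeds electrons to the mitochondrial machinery, had 4.12 and 3.14, and ISCA2 had 4.25 and 3.69. LYRM4, BOLA3 and HSCB were slightly above 0 with intervals that included 1, and CIAPIN1, the most abundant, had 26.2 and 24.5.

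Few markers of cells that handle haem in bulk were listed. Of 13 erythroid genes, 11 were not analysed here, and HBB at 0.0472 FPKM and GATA1 at 0.0413 were listed, both in the Control library alone. Of 10 genes of iron-recycling macrophages, 4 were listed and 6 were not analysed here. Those listed had sums of 0.921 FPKM in Control against 1.34 in AG, nearly all from MARCO at 0.871 and 1.21. CD163, the receptor for haptoglobin and haemoglobin, was listed in AG only, at 0.0463 FPKM.

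SQSTM1, chosen by its value, had the largest difference among the 12 genes of selective autophagy that were compared. It was the only 1 of them past 1.5-fold, and the median of the other 11 was -0.10. Among all 5528 genes, 3.33% were at least 1.5-fold lower, so nothing is read from this place or count. TAX1BP1, a cargo receptor of the same kind, had 21.5 FPKM in Control against 18.8 in AG, with a ratio of 0.874 (0.830 to 0.921). ATG14 and ATG13, which act at the start of autophagosome formation, had 3.90 and 2.85, and 13.5 and 10.9. The LC3 family members MAP1LC3B, at 6.93 and 7.40, and GABARAPL2, at 16.4 and 14.4, went opposite ways. ATG5, of the conjugation machinery, had 9.78 and 11.1, and TBK1, the kinase that phosphorylates SQSTM1, had 3.29 and 3.56. Of 30 genes in this list, 15 were not analysed here.

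**Figure D4:**
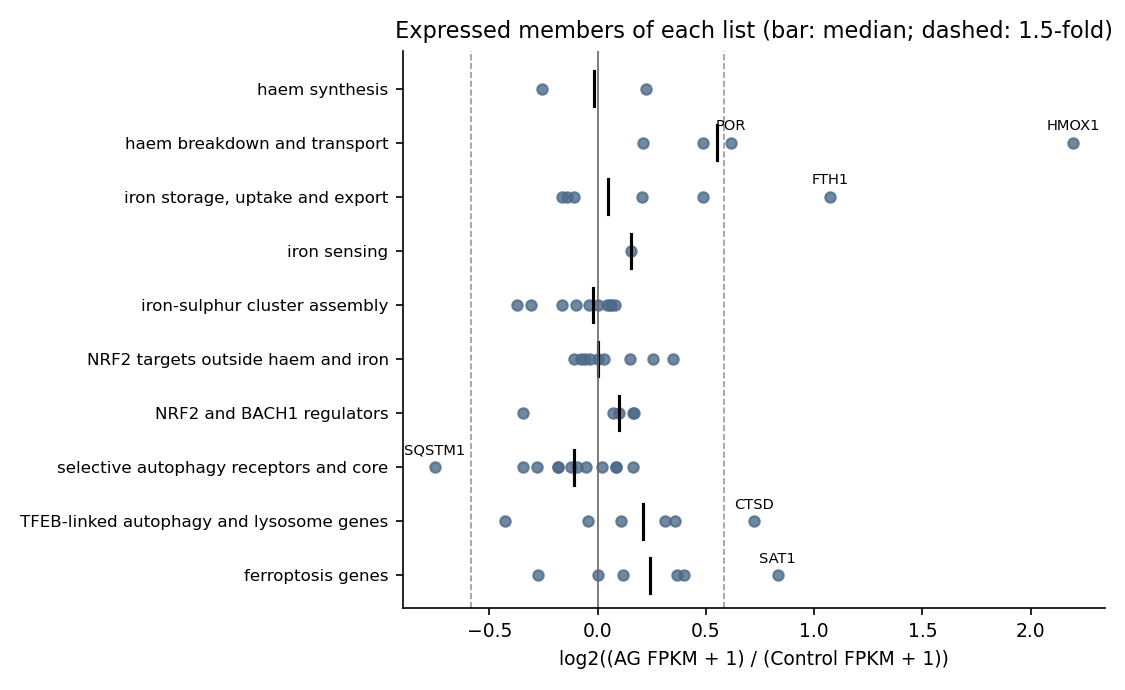
Each point is the log2((AG FPKM + 1)/(Control FPKM + 1)) of 1 gene, in 10 lists, for expressed genes in 1 library per group, with a bar at the list median and dashed lines at 1.5-fold. HMOX1 (2.19), FTH1 (1.07) and SQSTM1 (-0.75) were chosen by these values, so their places at the ends of their lists carry no test. The plotted NRF2 targets outside haem and iron all lie between the dashed lines. Targets below the filter, such as ABCC3, are not plotted, and nothing is read from the contrast.

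The protein-coding genes with the ratio most like that of each gene were found by the absolute difference of log2 FPKM ratios, over 2 libraries and 4442 genes. Near HMOX1 were SLC37A2, NLRP12, NLRC4 and SLC2A14, with ratios from 8.12 down to 6.87. They differed from HMOX1 by 0.57 to 0.81 in log2. Nearest to FTH1 were ATF6B, AGPAT5, CYBB, ABHD8 and EEPD1, all within 0.02. Nearest to SQSTM1 were RFX8, TBL1X, MEGF6, HIST1H1C and WNT7B, all within 0.04. A likeness over 2 libraries compares a single ratio.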

How the data were processed

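The deposited files hold FPKM per Ensembl gene ID for 1 Control and 1 AG library, as computed by the authors. Per the submitters' processing notes, the tools were HISAT2, Trimmomatic, HTSeq and Cufflinks (no versions) and the build hg38. The sources used here do not give the annotation release, strand setting or filters. The files hold no zeros, and a gene without a value was not read as unexpressed. Of 16145 IDs, 97.1% were named from GENCODE 29.

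Library totals were those at which FPKM times exon length gave whole fragments (within 0.01) for 88.4% and 88.1% of single-transcript genes. A gene's fragment pair was the one with whole fragments and whole bases (within 0.002) nearest its GENCODE length (0.3 to 1.25 times), found for 93.8% of 5528 genes. Exact Clopper-Pearson intervals (95%) came from the pair. They cover counting error only, since fragments are not independent molecules. Differences were log2((AG FPKM + 1)/(Control FPKM + 1)), which understates low genes, for genes that both libraries list and whose values average at least 1 FPKM. A difference counted from 1.5-fold. No test was possible with 1 library per group.

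The members and the 10 pathway and 6 marker lists were chosen with earlier results of these data known. The rule for named genes took all 11 genes of interest. From each pathway list it took the 3 highest and 3 lowest differences and the 2 highest levels, from each marker list the 2 highest levels, and for each of HMOX1, FTH1 and SQSTM1 the 5 nearest ratios. A few of the genes so named are not reported here. PCBP1, GABARAP, BEST1, MRNIP, MGAT4B, ITGAM, MPO, ABCC3, SLC6A9 and listed markers below 1 FPKM were named outside it, after their values were seen. Promoter windows are from RefSeq. The steps were tested on simulated data. Alternatives were pseudocounts, scalings, filters and thresholds. Computation used pandas 2.3.3, scipy 1.17.1 and numpy 2.4.6 under Python 3.11.15, and plots used matplotlib 3.10.9.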

Additional observations from a re-analysis of the deposited data

How the results depend on the processing

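Pseudocounts of 0.1 and 5 FPKM and scalings to the same listed total and by the median of ratios were tried, and a pseudocount cannot turn a direction. The log2 difference of HMOX1 was 3.34 with 0.1 FPKM added and 0.98 with 5 FPKM. That of FTH1 was 0.86 with 5 FPKM. That of SQSTM1 was -1.17 with 0.1 FPKM and -0.29 with 5 FPKM, which is within 1.5-fold. The number of autophagy genes at least 1.5-fold lower went from 1 to 0 with 5 FPKM added, with a minimum mean of 5 FPKM, at a 2-fold threshold, and without SQSTM1, an alternative chosen after seeing the data. The median of the NRF2 target list was 0.13 without a filter on low values.

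Among all genes, 199 were higher and 184 lower. These numbers were 303 and 328 with 0.1 FPKM added, and 64 and 36 with 5 FPKM. They were 76 and 41 with a minimum mean of 5 FPKM, 65 and 49 at 2-fold, and 129 and 95 where the counting interval also had to exclude 1. All other values for these genes and lists moved by less than their counting error, or their counts by no more than 1.5 times, except that of FTL under scaling by the median of ratios (0.24 in place of 0.21). No paired analysis was possible because each group had 1 library, and no library could be left out for the same reason. Depth limits HMOX1 most, since its Control value rests on at most 18 fragments under the lengths considered.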

Other observations

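Of 6 lysosomal genes linked to the transcription factor TFEB, 1 passed 1.5-fold with the higher value in AG and the other 5 stayed within it, 4 of the 6 lying above 0, with a median log2 difference of 0.21. Among all 5528 genes, 2386 lay above 0, the median was -0.03, and 3.6% were at least 1.5-fold higher, so 1 in 6 is too few to set the list apart. That gene was CTSD, the protease cathepsin D, at 7.08 FPKM in Control against 12.3 in AG. CTSB, another cathepsin, had 5.95 and 7.91, and LAMP1, a lysosomal membrane protein, had 39.4 and 42.5. VPS11, of the tethering complex for fusion with lysosomes, was the lowest at 3.69 and 2.48.

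Of 6 genes tied to ferroptosis, the iron-dependent form of cell death, 1 passed 1.5-fold with the higher value in AG and the other 5 stayed within it, against 3.6% higher among all genes. Of the 6, 5 lay above 0, against 2386 of 5528, with a median of 0.24, and nothing particular to the list is read from this. SAT1, which acetylates polyamines, had 6.25 FPKM in Control against 11.9 in AG, with a ratio of 1.90 (1.63 to 2.23 by counting). LPCAT3, which builds polyunsaturated phospholipids, had 4.33 and 6.02, and CISD1, an iron-sulphur protein of the mitochondrial outer membrane, had 5.59 and 7.51. SLC3A2, a subunit of the cystine importer, was the lowest at 30.1 and 24.7.

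DPP3, a peptidase that binds KEAP1, had 17.2 FPKM in AG and no value to compare in Control, and was singled out after its value was seen.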
